A study of Mus musculus with 6 samples.

Results

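Transcripts of 8 genes, most of them effector or feedback genes of the Notch pathway, were compared between caudal arteries of Notch3-/- mice and of Notch3+/+ mice. The genes were Hes1, Hes5, Hes6, Hey1, Hey2, Heyl, Nrarp and Nrip2, and they were represented by every probe set (a group of short probes for 1 transcript) whose single gene symbol in the platform annotation is one of these names. They are 8 of 18193 genes with such a probe set, and have 15 of the 45101 probe sets on the chip. The caudal artery is the main artery of the tail, and its wall is mostly smooth muscle. Arteries came from mice aged 4 weeks (P28) and were pooled before RNA extraction, with 4 mice in each of the 3 Notch3-/- pools and 4, 3 and 3 mice in Notch3+/+ replicates 1, 2 and 3. The pools are biological replicates, 3 per genotype. Each pool was hybridised to 1 MOE430.2 Affymetrix chip, and values are log2 expression after RMA (background correction, normalization between arrays and averaging over probes). Strain, sex and the targeted Notch3 allele are not described in the sources used here, and pooling hides the spread between single mice.

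When a ligand binds a Notch receptor, the receptor's intracellular part is released, enters the nucleus and joins the DNA-binding protein RBPJ to switch on target genes. The best known targets encode HES and HEY proteins, basic helix-loop-helix repressors that silence other genes. NRARP is an ankyrin repeat protein that is induced by Notch and limits the receptor's intracellular part, a feedback loop. In arteries NOTCH3 is the Notch receptor typical of smooth muscle cells, and HEY proteins are known there and in endothelium. NRIP2 is a protein that binds nuclear receptors, and no source used here places it among direct Notch targets.

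Of the 8 genes, Nrip2 was lower in Notch3-/- arteries, by 2.10-fold to 2.32-fold on its 3 probe sets. None of the probe sets of the classical targets Hes1, Hey1, Hey2 and Heyl passed the test. Of the 15 probe sets, 14 lay above the level filter and were tested, and 2 of them passed at an adjusted p under 0.05, both of Nrip2 and both lower. Over the whole chip 0.252% of the 27027 tested probe sets passed, and 0.115% passed with a lower value in Notch3-/- arteries. The median difference, Notch3-/- minus Notch3+/+, was -0.04 over the 14 tested probe sets of these genes and -0.01 over all tested probe sets. A log2 difference of 1 or more downward was measured on 3 of the 14 probe sets, the 3 of Nrip2, against 0.144% of all tested.

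**Figure D1:**
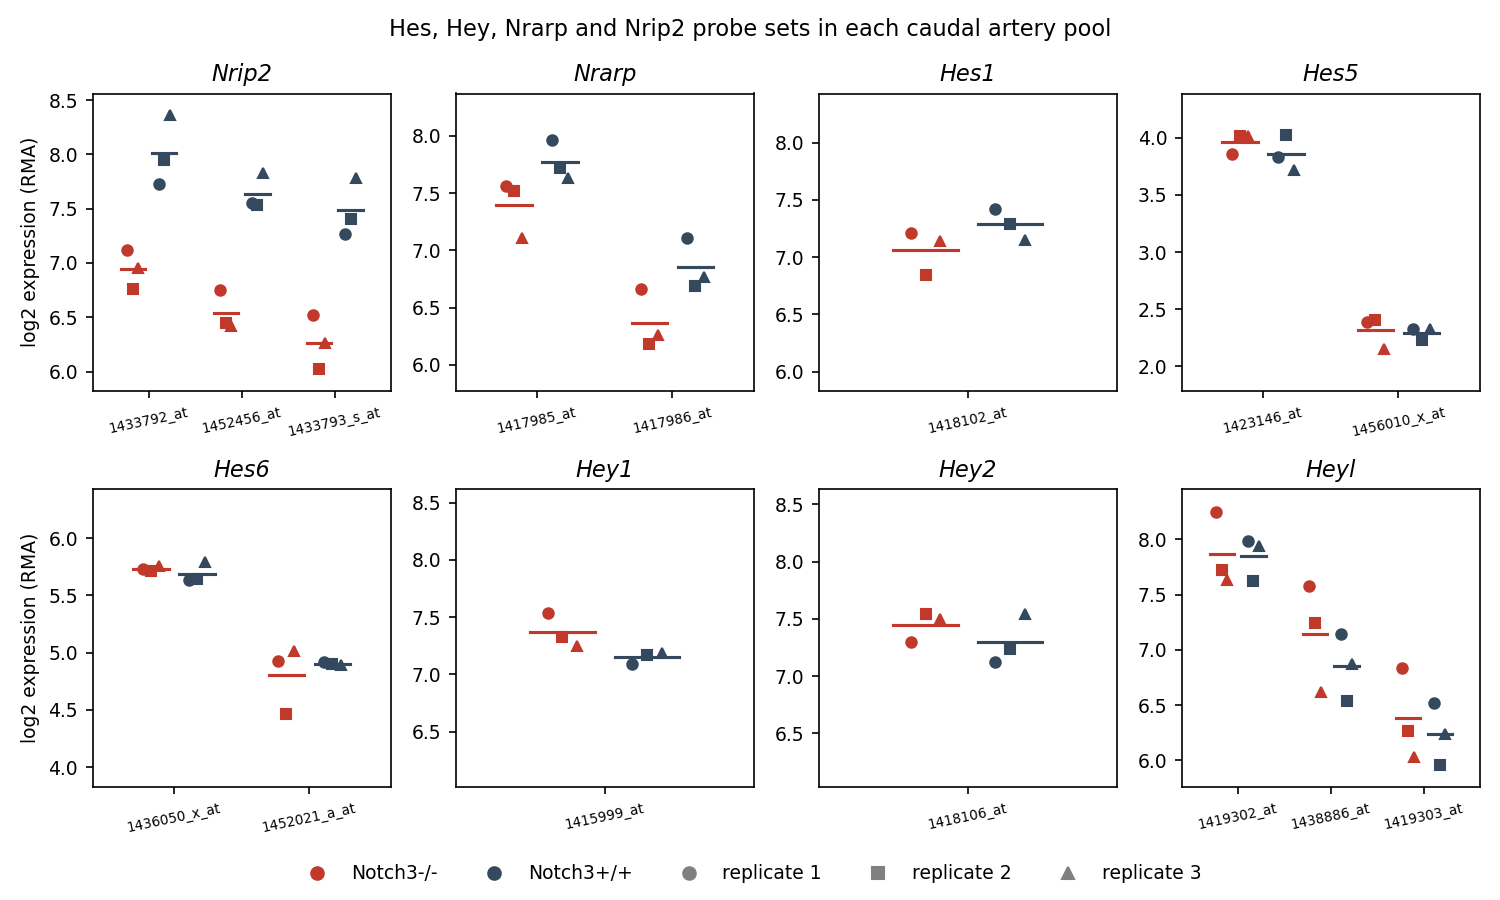
Log2 expression of the 15 probe sets of the 8 genes in each pool. Notch3-/- pools (red) stand left of Notch3+/+ pools (blue), the symbol gives the replicate, and bars are means of 3 pools. The Nrip2 and Heyl panels span slightly more log2 units than the others, which share 1 height. The 2 colours are apart on the 3 Nrip2 probe sets by 0.61 or more, and on both Nrarp probe sets and on Hey1 by 0.07 or less.

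The transcript of the knocked-out receptor gene followed the genotype labels. Notch3 on its brighter probe set read 6.51, 6.44 and 5.87 in the Notch3-/- pools, against 9.94, 9.95 and 10.09 in the Notch3+/+ pools. Whether its probes lie inside a deleted part is not known here. Smooth muscle markers were bright, with means over the 6 arrays of 13.23 for Acta2, 12.95 for Tagln and 12.03 for Myh11. Markers of endothelium, fibroblasts, pericytes, mast cells, leukocytes, nerve, fat and skeletal muscle were measured too, and of the skeletal muscle markers Myh4 lay below the level filter. Notch3-/- replicate 2 stood apart on the first principal component, at 39.5 against -17.1 to 5.85 for the other arrays, so results are given without it where that matters.

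Nrip2, the gene of a nuclear receptor interacting protein, was lower in every Notch3-/- pool on every probe set. Its brightest probe set, 1433792_at, read 7.12, 6.76 and 6.95 in Notch3-/- replicates 1, 2 and 3, against 7.73, 7.95 and 8.36 in Notch3+/+ replicates 1, 2 and 3. The second, 1452456_at, read 6.75, 6.45 and 6.42 in Notch3-/- pools, against 7.55, 7.53 and 7.83 in Notch3+/+ pools. The third, 1433793_s_at, whose suffix marks probes shared by several transcripts, read 6.52, 6.02 and 6.26 in Notch3-/- pools, against 7.27, 7.40 and 7.78 in Notch3+/+ pools. The genotypes did not overlap on any of the 3, and the gap between the closest pools was 0.61, 0.78 and 0.75. On all 3 probe sets replicate 3 was the highest of the Notch3+/+ pools and replicate 1 the highest of the Notch3-/- pools.

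The mean of 1452456_at was 6.54 ± 0.18 in Notch3-/- and 7.64 ± 0.17 in Notch3+/+ pools (SD, n = 3 each), and the transcript fell by 1.1 log2 units in the knockout (SE 0.13, 95% interval -1.39 to -0.8, adjusted p = 0.0204). The probe set 1433793_s_at averaged 6.27 ± 0.25 in Notch3-/- and 7.48 ± 0.27 in Notch3+/+ pools and fell by 1.22 (SE 0.17, adjusted p = 0.0499), just inside the threshold. The brightest, 1433792_at, averaged 6.94 ± 0.18 in Notch3-/- and 8.01 ± 0.32 in Notch3+/+ pools, a difference of -1.07 (SE 0.17, adjusted p = 0.0749) that missed the threshold. With the 3 probe sets of Nrip2 averaged before the fit, and every other gene treated alike, Notch3-/- arteries were 2.19-fold lower (-1.13, SE 0.14, adjusted p = 0.0199 over 11916 genes). By its brightest probe set Nrip2 had the 13th largest fall of 12732 genes ranked.

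The calls rest on few arrays. Without Notch3-/- replicate 1 the call of 1452456_at was kept (adjusted p = 0.0279). It was lost without Notch3-/- replicate 2 (0.097) or 3 (0.149), and without Notch3+/+ replicate 1 (0.0691), 2 (0.131) or 3 (0.106). The call of 1433793_s_at was lost whichever array was left out. The size moved little, between -1.2 and -1.0 for 1452456_at and between -1.34 and -1.07 for 1433793_s_at.

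**Figure D2:**
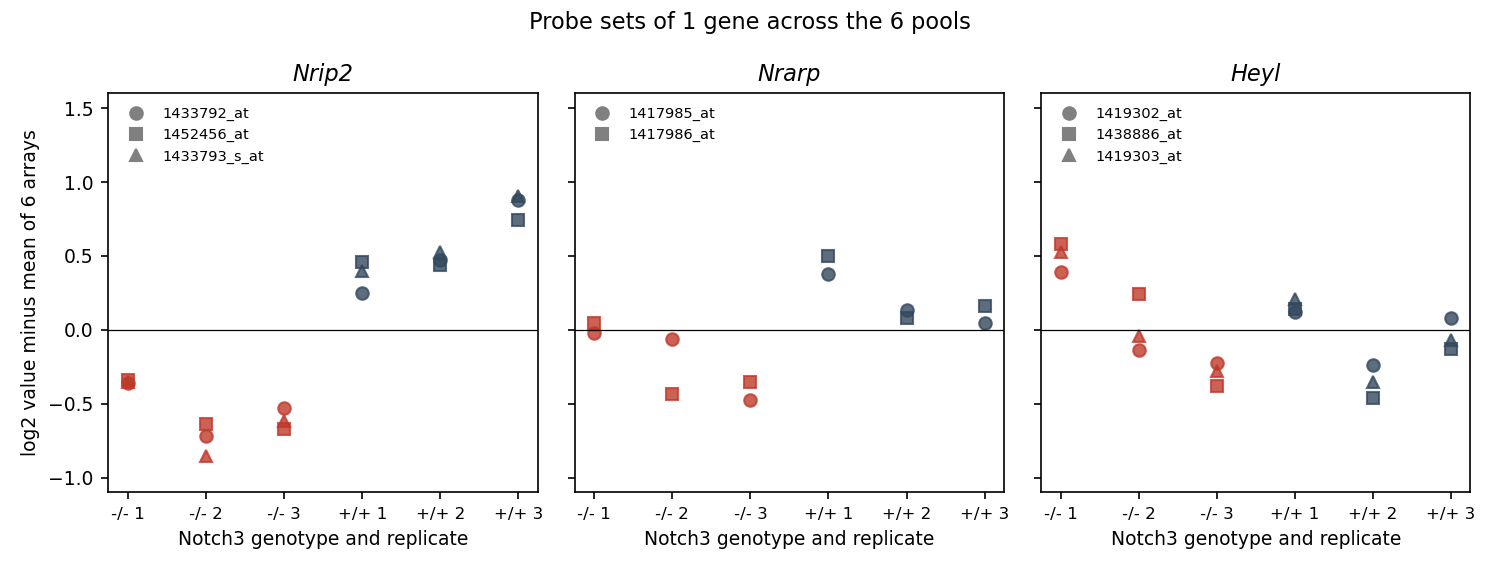
Values of each probe set of Nrip2, Nrarp and Heyl minus that probe set's mean over the 6 arrays, by genotype and replicate, in log2 units. The 3 Nrip2 probe sets lay at -0.86 to -0.34 in Notch3-/- pools and at 0.25 to 0.91 in Notch3+/+ pools, whereas the Heyl probe sets moved together from pool to pool with both genotypes on both sides of 0.

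Cell type markers also differed between the pools. The mean log2 level over 10 endothelial markers ran from 8.35 to 8.52 in Notch3-/- pools and from 8.59 to 8.73 in Notch3+/+ pools, with 8 of the 10 genes lower and 0 called. The same mean over 7 adipocyte markers ran from 7.51 to 7.75 in Notch3-/- pools and from 7.80 to 7.86 in Notch3+/+ pools. Of these 7 genes 6 had negative differences and 1 a positive one, 0 passed, and 2 were lower at an unadjusted p under 0.05. The lowest difference was -0.38 for Plin4, while the 2 brightest markers, Fabp4 and Adipoq, differed by 0.06 and 0. Over 9 skeletal muscle markers the mean ran from 5.42 to 6.26 in Notch3-/- pools and from 6.0 to 6.24 in Notch3+/+ pools. All 8 tested skeletal muscle markers had negative differences, from -0.63 to -0.19. Of these 0 passed and 3 had an unadjusted p under 0.05, against 4.85% lower at that p among all tested probe sets. Over 6 Schwann cell and nerve markers the mean ran from 8.04 to 8.21 in Notch3-/- pools and from 8.18 to 8.3 in Notch3+/+ pools. Negative differences were found for 5 of these 6. Of the 6, 0 passed and 3 were lower at an unadjusted p under 0.05, against the same 4.85%. Fibroblast, mast cell and leukocyte markers mostly had positive differences. Over 8 fibroblast markers the mean ran from 11.19 to 11.33 in Notch3-/- pools and from 10.92 to 11.1 in Notch3+/+ pools, with positive differences for 7 of the 8. Of these Dpt, the dermatopontin gene, passed (0.58, adjusted p = 0.0499). By the brightest probe set all 7 mast cell markers and all 9 macrophage and leukocyte markers had positive differences, with overlapping ranges of both means. None of them passed on that probe set, but 1 macrophage and leukocyte gene, not identified here, had another probe set that passed. By the brightest probe set Laptm5 had the smallest unadjusted p of that list (0.66, adjusted p = 0.264). The 4 tested probe sets of Laptm5 ran from -0.05 to 0.66, and the 3 of C1qb from 0.54 to 1.07. The mast cell mean spanned 7.12 to 7.72 in Notch3-/- pools, against 6.26 to 7.29 in Notch3+/+ pools. The leukocyte mean spanned 7.15 to 7.56 in Notch3-/- pools, against 6.44 to 7.18 in Notch3+/+ pools. The part of these markers in the Nrip2 difference was not tested. In whole arteries, fewer cells of a type and less RNA per cell cannot be told apart. The 7 smooth muscle markers went different ways. Des, the gene of the intermediate filament protein desmin, read 8.30, 8.21 and 8.75 in Notch3-/- pools, against 6.37, 6.52 and 6.34 in Notch3+/+ pools, and it rose by 2.01 (SE 0.15, adjusted p = 0.00327). The other 6 did not pass, with differences from -0.58 for Smtn to 0.51 for Cnn1.

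Nrip2 lies on chromosome 6 and Notch3 on chromosome 17, and none of the other 7 genes shares chromosome 17. The nearest tested genes on either side of Nrip2 were the transcription factor gene Foxm1 (-0.08), Itfg2 (-0.04) and the FK506 binding protein gene Fkbp4 (0.05). Among 32 such neighbours of the 8 genes, 2 on each side in RefSeq order, 22 were tested and 0 passed in limma, with differences from -0.32 to 0.23. The smallest unadjusted p among them was 0.0171, for Klhl30 beside Hes6. The neighbours were chosen after the members' values were known.

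Outside the 8 genes, the profile over the 6 pools most like that of Nrip2 was that of Pgam2, the muscle form of phosphoglycerate mutase. Likeness was the root mean square difference between the centred log2 values of the brightest probe sets, which was 0.0921 for Pgam2, where Nrip2 itself varied by 0.575 about its mean. Pgam2 read 6.40, 6.20 and 6.19 in Notch3-/- pools, against 7.05, 7.29 and 7.50 in Notch3+/+ pools. Next came Sorbs2, an actin-linked adaptor (0.136), the sodium-proton exchanger gene Slc9a2 (0.141) and Hp, which encodes haptoglobin (0.147). Like Nrip2, all 4 were lower in every Notch3-/- pool, which follows from how they were chosen. The 3 tested probe sets of Sorbs2 disagreed in size, from -0.94 to -0.04, so its match holds for the brightest one.

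Nrarp, the feedback inhibitor, was lower in all Notch3-/- pools on both probe sets, but neither passed the test. The brighter, 1417985_at, read 7.56, 7.52 and 7.11 in Notch3-/- replicates 1, 2 and 3, against 7.96, 7.72 and 7.63 in Notch3+/+ replicates 1, 2 and 3. The other, 1417986_at, read 6.66, 6.18 and 6.26 in Notch3-/- pools, against 7.11, 6.69 and 6.77 in Notch3+/+ pools. The genotypes did not overlap, though the closest pools were 0.07 and 0.03 apart. Notch3+/+ replicate 1 was the highest pool on both.

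On 1417985_at Nrarp averaged 7.40 ± 0.25 in Notch3-/- and 7.77 ± 0.17 in Notch3+/+ pools (SD, n = 3 each), a difference of -0.37 (SE 0.14, 95% interval -0.71 to -0.04, adjusted p = 0.404). On 1417986_at the difference was -0.49 (SE 0.16, 95% interval -0.86 to -0.12, adjusted p = 0.337). With both probe sets averaged it was -0.43 (SE 0.13, adjusted p = 0.255). With each array left out in turn 1417985_at ran from -0.46 to -0.23, the smallest without Notch3-/- replicate 3, and 1417986_at from -0.64 to -0.36. Unadjusted p-values were 0.0343 and 0.0163. Of the 14 tested probe sets 5 had an unadjusted p under 0.05, against 11.4% of all tested. All 5 were lower in Notch3-/- pools, against 4.85% of all tested, and 0 were higher, against 6.5%. These 5 probe sets read only Nrip2 and Nrarp, so they do not stand for 5 separate genes. The genes of the set were chosen with earlier results of these data known, so these shares are no test of the set. Pools that did not overlap, with Notch3-/- lower, were found for 5 of the 14 tested probe sets of these genes, the 3 of Nrip2 and the 2 of Nrarp, and for 7.75% of all tested. NRARP is made in endothelium as well as in other cells, and the endothelial marker means given above for the same pools did not overlap either. Their part in the Nrarp difference was not tested.

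Promoter sequence was at hand for 4 of the 8 genes in RefSeq's promoter table (build GRCm38.p6), Hes5, Hes6, Hey2 and Nrarp, and the others are named only. The 250 bases before the annotated start are shown for Hes5 and Hey2, textbook Notch targets that hold the core RBPJ motif there, and for Nrarp, the gene of this set with a lower value on both probe sets, which does not. The capitals mark TGGGAA or its reverse complement TTCCCA.
Hes5, chr4:154960673-154960922, plus strand: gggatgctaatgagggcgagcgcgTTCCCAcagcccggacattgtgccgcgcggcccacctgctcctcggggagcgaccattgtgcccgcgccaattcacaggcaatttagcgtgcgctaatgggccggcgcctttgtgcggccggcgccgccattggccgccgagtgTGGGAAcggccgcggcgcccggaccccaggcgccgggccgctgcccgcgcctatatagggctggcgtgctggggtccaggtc
Hey2, chr10:30842784-30843033, minus strand: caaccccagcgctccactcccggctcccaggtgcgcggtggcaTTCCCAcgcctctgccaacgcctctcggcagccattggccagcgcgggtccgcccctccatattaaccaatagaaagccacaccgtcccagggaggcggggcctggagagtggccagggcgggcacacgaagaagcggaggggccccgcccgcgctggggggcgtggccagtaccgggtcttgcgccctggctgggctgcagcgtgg
Nrarp, chr2:25180508-25180757, plus strand: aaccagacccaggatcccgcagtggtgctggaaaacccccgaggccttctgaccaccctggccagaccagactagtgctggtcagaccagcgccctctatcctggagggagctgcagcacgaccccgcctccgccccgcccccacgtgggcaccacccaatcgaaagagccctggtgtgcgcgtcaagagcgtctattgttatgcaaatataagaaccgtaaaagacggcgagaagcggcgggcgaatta

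The Hes5 stretch held the core motif 2 times, once on each strand, with its nearest base 221 and 77 bases before the start. Both Hes5 matches were part of the longer form GTGGGAA. Hey2 held 1 match, 202 bases before the start on the reverse strand, again as GTGGGAA. Nrarp held none of either form, but held CACGTG, an E-box of the kind that HEY proteins bind, 103 bases before its start. It also held 2 matches to the N-box CACNAG, a HES binding motif. Neither of the 2 Hes6 stretches held TGGGAA. Over 32851 promoter stretches of the same length, searched on both strands, 21.6% held TGGGAA, 5.42% GTGGGAA, 6.02% CACGTG and 36.7% CACNAG. The matches describe these letters and say nothing about binding in the artery.

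Hes1, a widely expressed HES repressor, had 1 probe set and overlapping genotypes. It read 7.21, 6.84 and 7.14 in Notch3-/- pools, against 7.42, 7.29 and 7.15 in Notch3+/+ pools. The lowest value was that of Notch3-/- replicate 2, and Notch3-/- replicate 1 lay above Notch3+/+ replicate 3. The difference was -0.22 (SE 0.12, 95% interval -0.51 to 0.06, adjusted p = 0.535), and without Notch3-/- replicate 2 it was -0.11. The interval spanned 0.704 to 1.04 times the Notch3+/+ level.

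Hes5, a HES repressor best known from neural progenitors, was near the dim end of the chip. Its brighter probe set, 1423146_at, read 3.86, 4.01 and 4.01 in Notch3-/- pools, against 3.83, 4.02 and 3.72 in Notch3+/+ pools, around the filter level of 3.83. Its other probe set, 1456010_x_at, ran from 2.15 to 2.41 in Notch3-/- pools and from 2.23 to 2.33 in Notch3+/+ pools and was not tested. The tested difference was 0.10 (SE 0.10, adjusted p = 0.711). The file has no detection calls, so these levels do not show whether the artery makes Hes5 at all.

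Hes6, a relative that counteracts HES1 and is not a typical Notch target, gave differences of opposite sign. On 1436050_x_at, whose suffix marks probes that can match other sequences, it averaged 5.73 ± 0.03 in Notch3-/- and 5.69 ± 0.09 in Notch3+/+ pools (SD, n = 3 each), a difference of 0.05 (SE 0.08, adjusted p = 0.845). On 1452021_a_at it read 4.93, 4.46 and 5.01 in Notch3-/- pools, against 4.92, 4.90 and 4.89 in Notch3+/+ pools. There the difference of -0.10 (SE 0.14, adjusted p = 0.802) came with 1 low array, Notch3-/- replicate 2, and without it the difference was 0.07.

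Hey1, a HEY repressor of arterial endothelium and smooth muscle, was slightly higher in each Notch3-/- pool. It read 7.54, 7.33 and 7.25 in Notch3-/- pools, against 7.09, 7.17 and 7.19 in Notch3+/+ pools. The groups did not overlap, with 0.06 between the closest pools, and non-overlap with Notch3-/- higher was found for 1 of the 14 tested probe sets of these genes and for 8.43% of all tested. In either direction 6 of the 14, those of Nrip2, Nrarp and Hey1, did not overlap, against 16.2% of all tested. The difference was 0.22 (SE 0.10, 95% interval 0.00 to 0.45, adjusted p = 0.442), or 1.17-fold. Without Notch3-/- replicate 1 it was 0.14.

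Hey2, which takes part in setting arterial identity, overlapped between genotypes. It read 7.30, 7.54 and 7.50 in Notch3-/- pools, against 7.12, 7.24 and 7.54 in Notch3+/+ pools. The highest Notch3+/+ pool, replicate 3, equalled the highest Notch3-/- pool, replicate 2. The difference was 0.15 (SE 0.13, 95% interval -0.15 to 0.44, adjusted p = 0.679). With each array left out in turn it ran from 0.06, when Notch3+/+ replicate 1 was dropped, to 0.27, when Notch3+/+ replicate 3 was.

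Heyl, the HEY family member best known from vascular smooth muscle, varied more within each genotype than between them. Its brightest probe set, 1419302_at, read 8.25, 7.72 and 7.63 in Notch3-/- pools, against 7.98, 7.62 and 7.94 in Notch3+/+ pools. The second, 1438886_at, read 7.58, 7.24 and 6.62 in Notch3-/- pools, against 7.14, 6.54 and 6.87 in Notch3+/+ pools. The third, 1419303_at, read 6.84, 6.27 and 6.03 in Notch3-/- pools, against 6.52, 5.96 and 6.24 in Notch3+/+ pools. All 3 Heyl probe sets were highest in Notch3-/- replicate 1 and lowest in Notch3+/+ replicate 2, so the pools differed in the same way on separate probes.

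The Heyl differences were 0.02 (SE 0.18, adjusted p = 0.973), 0.30 (SE 0.25, adjusted p = 0.673) and 0.14 (SE 0.22, adjusted p = 0.833), smaller than the SDs of 0.34, 0.49 and 0.42 among the Notch3-/- pools. For the brightest the 95% interval ran from -0.39 to 0.43, or 0.761 to 1.35 times the Notch3+/+ level. Without Notch3-/- replicate 1 the 3 differences were -0.17, 0.08 and -0.09. A change of Heyl in either direction within that interval cannot be told from the spread of the pools.

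**Figure D3:**
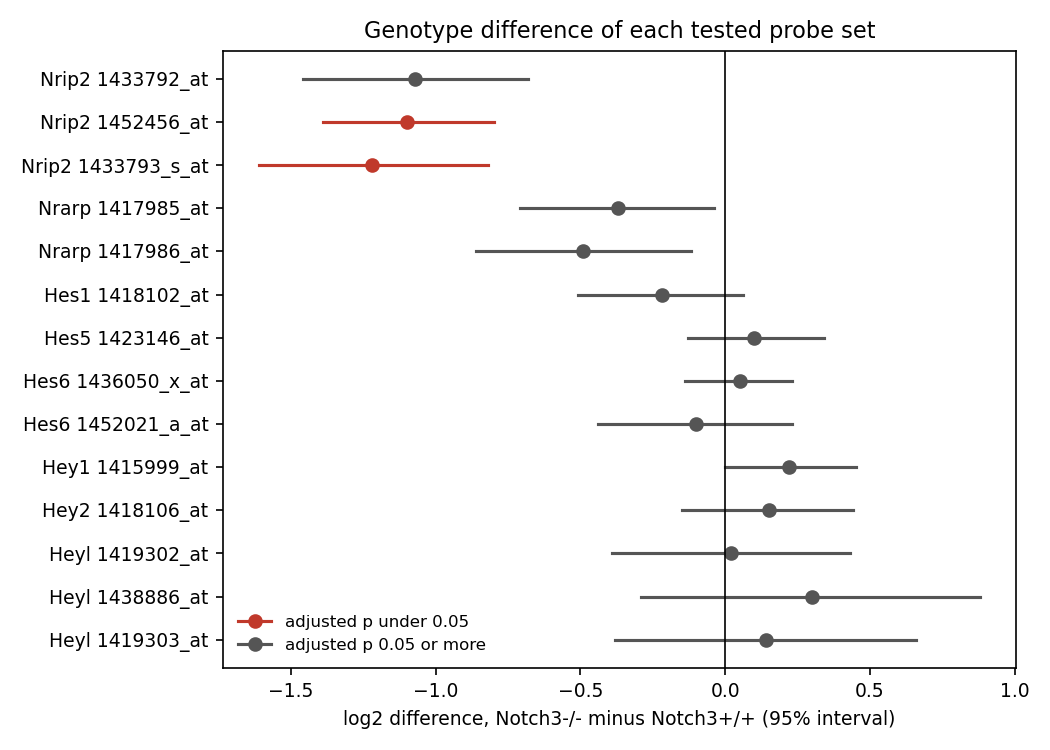
Difference of each of the 14 tested probe sets, Notch3-/- minus Notch3+/+, in log2 units, with the 95% interval from the fit over all probe sets. The 3 Nrip2 intervals end at -0.68 or lower and the 2 that passed are in red, the Nrarp intervals end just below 0, and the intervals of Hes1, Hes5, Hes6, Hey2 and Heyl include 0.

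Genes that make, read or oppose the Notch signal were described in 9 lists, by the brightest probe set of each gene. Of 71 distinct genes tested, 7 other than Notch3 had an unadjusted p under 0.05, against 11.4% of all tested probe sets. Notch3 passed, and 0 others passed in limma. By the same test at 1 probe set a gene, 0 of the 8 genes Hes1 to Nrip2 passed. The list medians lay between -0.12 and 0.06, against 0.00 over all 12732 genes tested, and against 0.03 for those 8 genes, of which 3 were lower and 5 higher.

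Among 8 tested receptors and ligands 1 passed as lower, Notch3, and 0 passed as higher, with 4 negative and 4 positive differences. Of the other receptor genes, Notch1 read 7.87, 7.83 and 7.57 in Notch3-/- pools, against 7.96, 7.93 and 7.98 in Notch3+/+ pools. Notch2 read 8.41, 8.80 and 8.54 in Notch3-/- pools, against 8.36, 8.46 and 8.30 in Notch3+/+ pools. Notch1 was lower in each Notch3-/- pool (-0.20, adjusted p = 0.496) and Notch2 overlapped (0.21, adjusted p = 0.531). The ligand gene Jag1 differed by -0.18 (adjusted p = 0.454), with its 3 probe sets from -0.53 to -0.18.

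Among the genes of RBPJ, its relative RBPJL and nuclear coactivators and corepressors, 0 of 13 tested passed or had an unadjusted p under 0.05. Rbpj, the DNA-binding partner of Notch, differed by 0.14 (adjusted p = 0.558), with its 3 probe sets from -0.08 to 0.14. The differences were 0.15 for the demethylase gene Kdm5a, 0.16 for the coactivator gene Ep300 and -0.20 for Rbpjl. The 3 tested probe sets of Kdm5a ran from -0.01 to 0.15, and Rbpjl was dim, with a mean of 4.23 near the filter level of 3.83. Of the 8 corepressor genes that HES and HEY proteins recruit, 0 passed or reached an unadjusted p under 0.05. The differences were 0.17 for Tle3, -0.10 for Tle1, 0.11 for Tle4 and 0.18 for the deacetylase gene Sirt1. The 4 tested probe sets of Tle3 ran from -0.25 to 0.17. Among 9 attenuators of Notch signalling 0 passed or had an unadjusted p under 0.05. The ubiquitin ligase genes Dtx4 (-0.13), Dtx1 (0.11) and Dtx3 (-0.13) and the inhibitor gene Numb (0.11) had the smallest unadjusted p. The 2 tested probe sets of Dtx4 were at -0.13 and 0.02.

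Among relatives of the HES proteins, 2 of 5 measured were above the filter, Bhlhe40 (-0.19) and Hes7 (-0.06), and 0 passed or had an unadjusted p under 0.05. Of 7 Id and bHLH partner genes 0 passed. Only Id4, which encodes an inhibitor that lacks a DNA-binding region, had an unadjusted p under 0.05, against 11.4% of all tested probe sets. It read 11.64, 11.62 and 11.62 in Notch3-/- pools, against 11.39, 11.14 and 11.12 in Notch3+/+ pools. The groups did not overlap, and the difference was 0.41 (SE 0.09, adjusted p = 0.198), with its 3 probe sets from 0.41 to 0.61. Id2 (0.23), Tcf4 (0.13) and Tcf3 (-0.14) had adjusted p-values of 0.552 or more, and the 3 tested probe sets of Id2 ran from -0.28 to 0.23.

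Of 10 other genes known as Notch targets in some cell type, 0 passed. An unadjusted p under 0.05 was found for 3, all higher, against 6.5% higher at that p among all tested probe sets. Pdgfrb, the PDGF receptor beta gene, read 10.17, 10.38 and 10.28 in Notch3-/- pools, against 9.88, 9.85 and 9.83 in Notch3+/+ pools (0.42, adjusted p = 0.138), but its other probe set differed by -0.09. The cell cycle inhibitor gene Cdkn1a differed by 0.49 (adjusted p = 0.404), with overlapping pools, and the repressor gene Snai2 by 0.36 (adjusted p = 0.386). Fabp7 differed by -0.26 (adjusted p = 0.530). The 5 pericyte markers, Pdgfrb among them, went both ways, with 3 positive and 2 negative differences. Cspg4 differed by -0.42 and Rgs5 by -0.07, against 0.44 for Abcc9 and 0.35 for Kcnj8. Their mean level, which includes Pdgfrb, ran from 9.53 to 9.62 in Notch3-/- pools and from 9.41 to 9.43 in Notch3+/+ pools. The part of these markers in the Pdgfrb difference was not tested.

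HEY proteins are known to oppose the smooth muscle coactivator myocardin, and 0 of 8 genes of that axis passed. An unadjusted p under 0.05 was found for 3 of them, against 11.4% of all tested probe sets. Myocd, which encodes myocardin, read 7.31, 7.58 and 7.54 in Notch3-/- pools, against 7.81, 7.77 and 8.03 in Notch3+/+ pools (-0.39, adjusted p = 0.265). The groups did not overlap, and the 2 tested Myocd probe sets differed by -0.57 and -0.39. Smtn, the smoothelin gene, differed by -0.58 (adjusted p = 0.318) and Cnn1, the calponin gene, by 0.51 (adjusted p = 0.138), so these contractile genes lay on opposite sides of 0. Mrtfb, a myocardin relative, differed by -0.13, with its 3 tested probe sets from -0.13 to 0.09. Nuclear receptors and relatives of Nrip2 gave 0 passing genes of 6 tested and 0 at an unadjusted p under 0.05. Nrip3 differed by 0.19, Rora by 0.18, Rara by -0.09 and Thra by -0.04. The 9 tested probe sets of Rora ran from -0.20 to 0.18, and the 3 of Thra from -0.04 to 0.14.

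**Figure D4:**
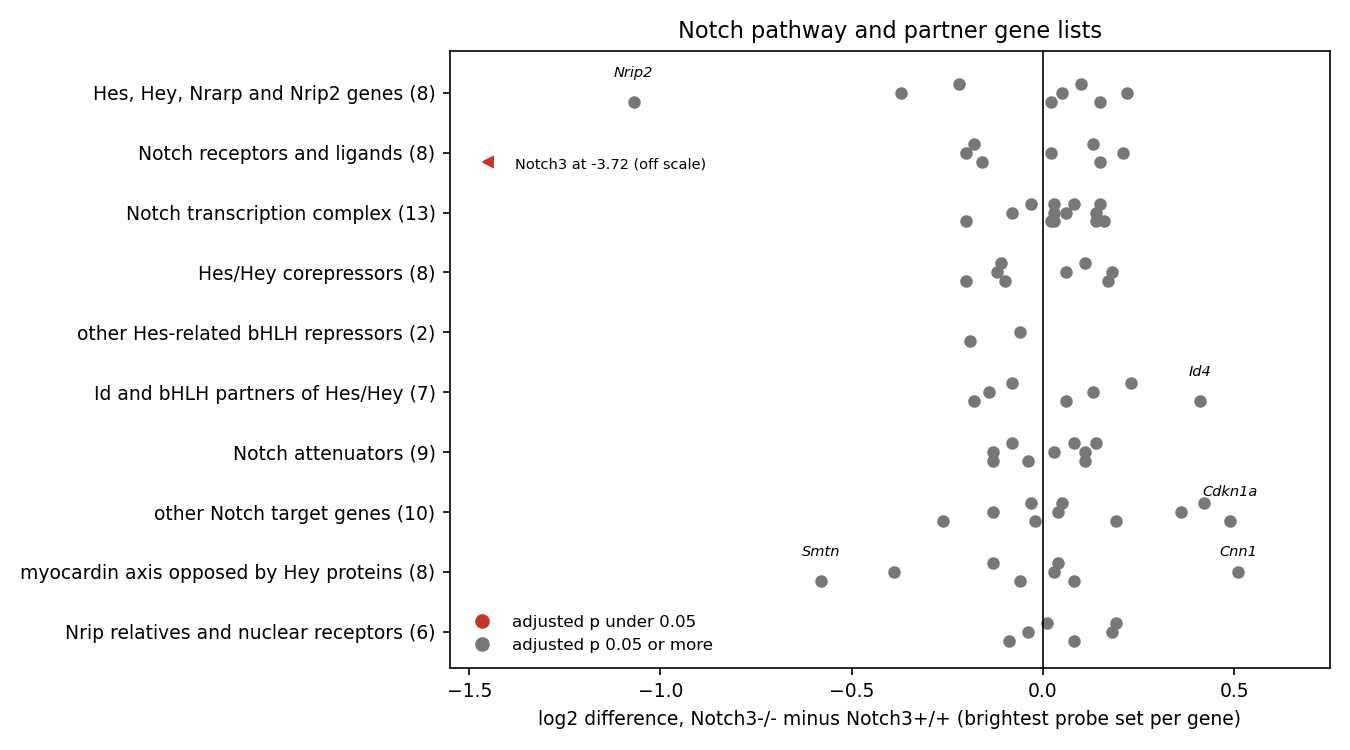
Log2 difference, Notch3-/- minus Notch3+/+, of each tested gene (1 point a gene, its brightest probe set) in 9 gene lists and, in the top row, the 8 genes from Hes1 to Nrip2. Numbers in brackets are genes tested, vertical offsets within a row only separate points, and Notch3 is drawn at the left edge because its value of -3.72 is off the scale. Apart from Notch3 and Nrip2 the points lie between -0.58 and 0.51.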

How the data were processed

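The authors deposited 1 log2 value for each probe set and array. RMA is named in the submitters' processing notes, without a version, and the scale was inferred from the range of the values. No scanner files were used, and no batch is given in the labels.

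Of 45101 probe sets 64 chip controls were left out. Names came from the platform annotation, with 34945 probe sets holding 1 symbol, 932 several genes and 9160 none. Symbols of 34741 were updated by gene number through RefSeq. A probe set was tested where its average across arrays reached the 40th percentile of such averages (3.83), as 27027 did.

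Genotypes were compared with limma 3.58.1 in R 4.3.3 (lmFit and eBayes, two-sided), with Benjamini-Hochberg adjustment over the 27027 probe sets and a threshold of 0.05. Every adjusted p comes from such a fit, and differences are Notch3-/- minus Notch3+/+. Samples were grouped by the titles' genotype, and the number of arrays limits the precision. The fit was tested on simulated arrays, with 50 changed probe sets at each size. Noise was normal and independent, with each probe set's own spread within genotypes, and no simulated array stood apart as Notch3-/- replicate 2 did. In that setting the fit called 4% of 1.3-fold, 34% of 1.5-fold, 74% of 2-fold and 98% of 4-fold changes. The shares for the real arrays can differ. A small difference that did not pass is therefore not shown to be absent. The members, lists and tests were chosen with earlier results of these data known. All members were named, and of each of the 9 Notch-related lists the called genes and up to 4 genes with the smallest unadjusted p. Alternatives varied the filter, variance model, normalization, weights, replicate block, threshold, probe set choice and arrays included.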

Additional observations from a re-analysis of the deposited data

How the results depend on the processing

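The number of called probe sets was 68, and 978 with array weights estimated by limma and 142 at a threshold of 0.10. It ran from 13 to 62 when each array was left out, at 13 when Notch3+/+ replicate 2 was dropped, 17 for Notch3-/- replicate 3, 23 for Notch3+/+ replicate 3 and 37 for Notch3-/- replicate 2. Called probe sets of the 8 genes numbered 2, and 1 with no filter, with robust eBayes and with weights by mice pooled, 3 with array weights and at a threshold of 0.10, and 0 to 1 when each array was left out. All that were called belonged to Nrip2, and its 3 probe sets were lower in Notch3-/- pools under every alternative run.

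Nrip2 1433793_s_at lost its call with no filter (-1.22, adjusted p = 0.0586), robust eBayes (-1.22, adjusted p = 0.0531) and weights by mice pooled (-1.20, adjusted p = 0.0597), and with an array left out its values ran from -1.34 to -1.07. For 1452456_at they ran from -1.2 to -1.0. The brightest, 1433792_at, passed with array weights (-1.03, adjusted p = 0.00744) and at a threshold of 0.10 (-1.07). With 1 value a gene, Nrip2 passed as the mean of its probe sets (-1.13) and by the one of largest variance (-1.22), which was 1433793_s_at. With an array left out 1433792_at ran from -1.21 to -0.90 and did not pass.

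With the replicate number as a block 57 probe sets were called and 0 of the 8 genes, with Nrip2 at -1.1 (adjusted p = 0.0604) on 1452456_at and -1.22 (adjusted p = 0.0805) on 1433793_s_at. The deviations of same-numbered pools correlated at 0.242, 0.0465 and -0.0672, and no source says that the numbers mark shared mice or days, so they were not taken to pair the pools.

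With array weights Nrarp came to adjusted p-values of 0.0503 and 0.0791 and was not called under any alternative, and Hey1 read 0.14, whereas Id4 (0.0228), Pdgfrb (0.0138), Cnn1 (0.00901) and Smtn (0.0487) were called. Small differences changed sign. Heyl 1419302_at read -0.01 after further quantile normalization and with array weights, and -0.17 to 0.14 with an array left out. Heyl 1419303_at ran from -0.09 to 0.32 and Hes6 1452021_a_at from -0.21 to 0.07 with an array left out, and that Hes6 probe set read 0.06 with array weights. Hes6 read -0.03 as the mean of its probe sets and -0.10 on the one of largest variance. Tcf3 ran from -0.22 to 0.01 and Rara from -0.24 to 0.00 with an array left out. The cause was not tested in any of these cases. No source gives signal over background, so how far brightness limits the dim Hes5 values is unknown.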
